A study of Mus musculus with 26 samples.

Results

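Fam107a and Fam107b are the mouse members of a small gene family named after a shared sequence, and they are 2 of the 19505 genes measured here. They were chosen by name because Fam107a had the largest Dex response in an earlier reading of these same arrays and Fam107b is its relative. The levels in the 4 groups, the Dex minus vehicle differences and the genotype difference of both genes therefore entered the choice, and they are given below as a description with no p-value. Each gene had 1 transcript cluster (the array's set of probes for a gene).

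The cells were neural stem and progenitor cells (NSPCs), cultured from the telencephalon of C57BL/6 mice at postnatal day 0 in a medium with epidermal growth factor and fibroblast growth factor-1, with each animal's culture kept separate. Dexamethasone (Dex, a synthetic glucocorticoid, 100 nM) or its ethanol vehicle was added for 4 h after passage 3. The groups were SOX2 KO with Dex (7 arrays) and SOX2 KO with vehicle (7 arrays), from cultures numbered 7 to 13, and WT with Dex (6 arrays) and WT with vehicle (6 arrays), from cultures numbered 1 to 6. Each culture gave 1 Dex and 1 vehicle array. Animals of both sexes were used, and neither the sex of a culture nor the way Sox2 was deleted is given in the sources used here.

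Fam107a, also called DRR1, encodes a small protein that binds and bundles actin filaments. In the mouse brain it is known as a gene that stress and glucocorticoids raise, and in the developing human cortex it is used as a marker of outer radial glia, a class of neural stem cell. Fam107b encodes a related small protein, described in human cells as inducible by heat shock. Glucocorticoids act through the glucocorticoid receptor, encoded by Nr3c1, a transcription factor that on hormone binding enters the nucleus and binds DNA at pairs of half-sites.

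Sox2, the targeted gene, lay between 3.92 and 6.50 log2 units on the SOX2 KO arrays and between 12.17 and 14.39 on the WT arrays. Of the 11 neural stem and progenitor markers examined, 8 were above the array's median on all 26 arrays, as were 4 of 6 astrocyte markers, 3 of 6 neuron markers and 1 of 5 oligodendrocyte markers. Below the median on all arrays were 5 of 6 microglia, 4 of 5 endothelial and 4 of 5 fibroblast markers, among them Cx3cr1, Cldn5 and Dcn. In culture 4, a WT culture, genes of the Dex response differed between the arrays in the direction opposite to their labels, as for Fkbp5 (-2.03, against 1.27 to 1.87 in the other WT cultures), so results on the 2 genes are given with and without it. Whether its arrays carry the right labels was not tested. Apart from group, the overall profiles placed the cultures in 3 array clusters with no counterpart in the labels (1, 2, 3, 7 and 8; 4, 10 and 12; 5, 6, 9, 11 and 13).

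The promoters are shown because Fam107a carries a glucocorticoid receptor motif that few promoters hold. The RefSeq table (mouse build GRCm38.p6) gives windows of 300 bases, 250 before a gene's start and 50 from it, with 3 such windows for Fam107a and 1 for Fam107b. The distal start of Fam107a, on the minus strand of chromosome 14, has the window chr14:8317558-8317857. The inner start lies 7828 bases further into the gene, with the window chr14:8309730-8310029, and the remaining window repeats it with a shift of 2 bases. The window of Fam107b, on the plus strand of chromosome 2, is chr2:3713208-3713507. Capitals mark matches to the glucocorticoid receptor core and half-site, and only the inner Fam107a window has any.
Fam107a, distal start: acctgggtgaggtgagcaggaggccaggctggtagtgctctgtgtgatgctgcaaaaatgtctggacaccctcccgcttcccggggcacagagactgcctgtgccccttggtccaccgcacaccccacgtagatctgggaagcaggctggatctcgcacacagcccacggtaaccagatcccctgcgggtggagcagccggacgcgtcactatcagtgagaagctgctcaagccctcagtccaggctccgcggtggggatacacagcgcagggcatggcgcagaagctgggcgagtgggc
Fam107a, inner start: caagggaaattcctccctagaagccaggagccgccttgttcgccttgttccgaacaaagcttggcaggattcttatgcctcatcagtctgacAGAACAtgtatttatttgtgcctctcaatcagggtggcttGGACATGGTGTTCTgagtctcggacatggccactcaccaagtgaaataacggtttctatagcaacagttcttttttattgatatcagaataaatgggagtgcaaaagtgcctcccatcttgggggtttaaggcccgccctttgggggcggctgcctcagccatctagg
Fam107b: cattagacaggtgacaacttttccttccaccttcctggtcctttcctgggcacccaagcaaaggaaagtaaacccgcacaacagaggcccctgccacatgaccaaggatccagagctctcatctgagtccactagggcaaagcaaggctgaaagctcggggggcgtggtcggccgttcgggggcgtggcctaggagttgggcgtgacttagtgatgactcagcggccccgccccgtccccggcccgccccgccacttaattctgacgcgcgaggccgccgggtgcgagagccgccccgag

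The inner window of Fam107a held 1 match to the palindromic core, GNACA and TGTNC with 3 bases of any kind between them, at positions -118 to -106 from the start. That motif was found in 156 of 32851 promoter windows of this length, or 0.475%. The window also held the half-site TGTTCT 2 times. The copy at -110 to -105 on the gene's strand overlaps the core, and the copy at -158 to -153 lies on the opposite strand, as AGAACA. At least 1 half-site was present in 19.0% of windows. The SOX motif CTTTGT was matched once, on the opposite strand at -197 to -192, against 18.7% of windows with a match. The distal Fam107a window and the Fam107b window held no match to any of the 8 motifs searched on both strands, which also included ATTGTT (in 10.7% of windows), the cAMP response element TGACGTCA (1.79%), the heat shock element (GAA, TTC and GAA, each 2 bases of any kind apart, 0.603%), TATAAA (13.6%) and the E-box CACGTG (7.15%). GC content was 64.0% in the distal window, 49.0% in the inner window and 63.3% in the Fam107b window. A match is a match of letters and shows no binding.

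**Figure D1:**
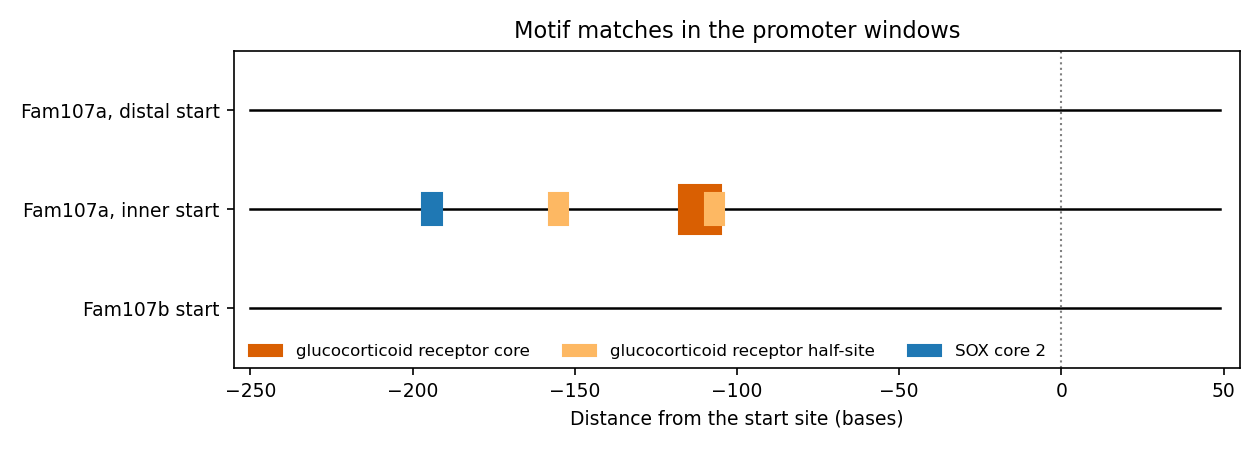
Motif matches in the windows of 2 Fam107a starts and 1 Fam107b start, by distance from the start site in bases (x axis). The core (dark orange, -118 to -106) and both half-sites (light orange) stand in the inner Fam107a window, as does a SOX motif (blue), and the other windows are empty.

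In SOX2 KO cultures Fam107a was far higher with Dex than with vehicle. With Dex its level was 10.62, 10.10, 9.97, 10.43, 8.93, 9.44 and 9.47 log2 units in cultures 7 to 13, in that order. With vehicle the same cultures had 5.62, 5.53, 5.22, 5.55, 4.45, 5.30 and 5.48. The lowest Dex array stood well above the highest vehicle array, so the groups did not overlap. Dex arrays averaged 9.85 ± 0.60 and vehicle arrays 5.31 ± 0.40 (SD, n = 7 each). Of all genes, 0.082% had all 7 Dex arrays above all 7 vehicle arrays.

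The Dex minus vehicle difference of Fam107a was 5.00 in culture 7, 4.57 in culture 8, 4.75 in culture 9, 4.88 in culture 10, 4.48 in culture 11, 4.14 in culture 12 and 3.99 in culture 13. Its mean was 4.54 ± 0.37 (SD, n = 7), or 23.3-fold higher if the deposited values are log2. The cultures ranged from 15.9-fold to 32.0-fold higher. In 6 of the 7 cultures no other gene differed by as much in that direction. In culture 12 Fam107a ranked 3 of 19505, behind Olfr961 (5.19). The Dex array of that culture had the lowest upper quartile of all arrays, 9.38.

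In WT cultures other than culture 4, Fam107a was again far higher with Dex. With Dex its level was 11.21, 10.80, 11.29, 10.89 and 9.65 in cultures 1, 2, 3, 5 and 6. With vehicle it was 5.45, 5.58, 5.55, 5.14 and 5.04 in the same cultures. The groups did not overlap, and 0.385% of all genes had all 5 Dex arrays above all 5 vehicle arrays in these cultures. Over all 6 WT cultures the Fam107a groups did overlap, and 0.0154% of all genes had all 6 Dex arrays above all 6 vehicle arrays. The mean difference was 5.42 ± 0.51 (SD, n = 5), or 42.7-fold, with 5.76 in culture 1, 5.22 in culture 2, 5.74 in culture 3, 5.75 in culture 5 and 4.61 in culture 6. Fam107a had the largest positive difference of all genes in each of these cultures.

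Culture 4 ran the other way. Fam107a was at 5.68 in its array labelled Dex and at 12.51 in its array labelled vehicle, a difference of -6.83. The first value lay next to the vehicle arrays of the other cultures, and the second was above every Dex array of the series. No gene of culture 4 had a lower difference. With culture 4 the WT mean difference was 3.38 ± 5.02 (SD, n = 6), and the group means were 9.92 ± 2.16 with Dex and 6.55 ± 2.93 with vehicle. Without it they were 10.77 ± 0.66 with Dex and 5.35 ± 0.25 with vehicle (SD, n = 5).

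**Figure D2:**
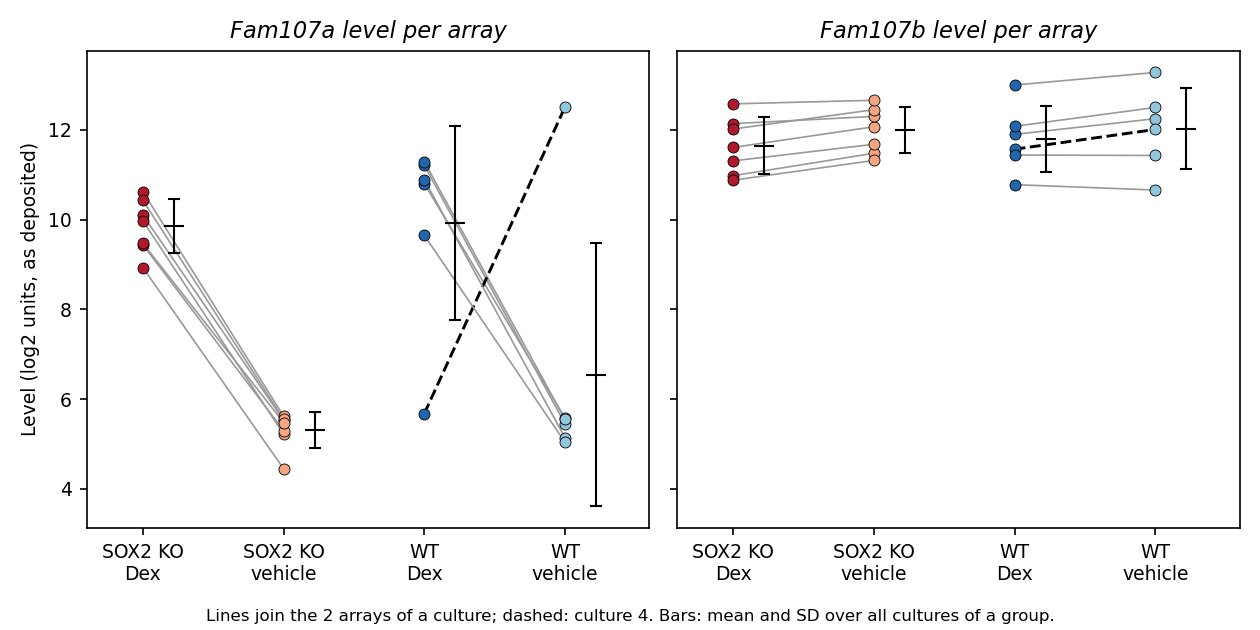
Level of Fam107a (left) and Fam107b (right) on each array, in log2 units as deposited (y axis), by group (x axis), with a line joining the 2 arrays of a culture and bars for mean and SD over all cultures. Fam107a was at 8.93 or above on every Dex array and at 5.62 or below on every vehicle array except those of culture 4 (dashed), while the Fam107b groups overlap.

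Between genotypes, the vehicle levels of Fam107a were close and the Dex levels somewhat lower in SOX2 KO. In vehicle the SOX2 KO cultures averaged 5.31 and the WT cultures without culture 4 averaged 5.35, a difference of -0.04 ± 0.19 (SE). With Dex they averaged 9.85 and 10.77, a difference of -0.92 ± 0.37 (SE), and their ranges of 8.93 to 10.62 and 9.65 to 11.29 overlapped. With culture 4 the differences were -1.24 ± 1.21 in vehicle and -0.07 ± 0.91 with Dex, and the second turned to 0.13 after quantile normalization and 0.01 after median centring. In order of level, without culture 4, the groups stood as WT Dex, SOX2 KO Dex, WT vehicle and SOX2 KO vehicle. The pair with Dex and the pair with vehicle each overlapped within itself.

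The Dex response of Fam107a was smaller in SOX2 KO than in WT by 0.87 once culture 4 was left out (-0.87 ± 0.27, SE, n = 7 and 5). Cultures 7, 9 and 10 of SOX2 KO had differences above the 4.61 of WT culture 6, and the other 4 SOX2 KO cultures were below all 5 WT cultures. With culture 4 the sign turned, to 1.17 ± 2.05 (SE, n = 7 and 6). Within the array cluster of cultures 1, 2, 3, 7 and 8 the genotype difference in response was -0.79, and within that of cultures 5, 6, 9, 11 and 13 it was -0.77. In the remaining cluster, where culture 4 is the only WT culture, it was 11.34. Since the responses of these cultures were known when the gene was chosen, no p-value is attached.

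Some markers of other cells differed between the genotypes as well. Of 6 astrocyte markers, 2 were lower in SOX2 KO in limma in both treatments, where 0.369% of all genes were called lower in vehicle and 0.379% with Dex. They were the glutamate transporter gene Slc1a2 (-2.03 ± 0.35 in vehicle, SE, adjusted p = 0.00204) and Aldoc, an aldolase gene (-1.71 ± 0.22, adjusted p = 3.57e-05). Of 6 neuron markers 1 was lower, the synaptic vesicle gene Syt1 (-1.59 ± 0.34 in vehicle, limma adjusted p = 0.0149, and -1.42 ± 0.34 with Dex, adjusted p = 0.0399), and with Dex it did not pass without culture 4. The astrocyte markers averaged 9.31 to 11.41 per array in SOX2 KO with Dex, 9.57 to 11.43 in SOX2 KO with vehicle, 9.68 to 11.99 in WT with Dex and 9.71 to 11.71 in WT with vehicle. The neuron markers averaged 8.53 to 9.54, 8.69 to 9.53, 9.08 to 10.12 and 8.92 to 9.84 in the same groups. In vehicle 4 of the 6 astrocyte markers were lower in SOX2 KO and 2 higher, with a median of -0.05 (-0.03 over all genes). With Dex 5 were lower and 1 higher, with a median of -0.25 (-0.06 over all genes). Of the 6 neuron markers, 4 were lower and 2 higher in each treatment, with medians of -0.13 in vehicle and -0.50 with Dex. None of the 5 oligodendrocyte markers passed between genotypes. In vehicle 3 were lower and 2 higher (median -0.01), and with Dex 4 were lower and 1 higher (median -0.52). None of the 11 neural stem and progenitor markers passed between genotypes either. In vehicle 3 were lower and 8 higher (median 0.06), and with Dex 6 were lower and 5 higher (median -0.01). No marker of any cell type passed with Dex in either genotype in limma, where only 0.0513% of all genes were called in SOX2 KO and 0.0% in WT. Of the 11 neural stem and progenitor markers, 10 were lower with Dex in SOX2 KO, with a median of -0.33 against -0.02 over all genes, and 5 had an unadjusted p under 0.05 with the culture as a block and without culture 4 (9.74% of all genes). In WT 9 of the 11 were lower in that fit, with a median of -0.16 against 0.00, and 2 had such a p (4.93%). The transcription factor gene Sox9 differed by -0.62 ± 0.18 in SOX2 KO (SE, limma adjusted p = 0.274) and by -0.56 ± 0.21 in WT (adjusted p = 0.950). The part of these markers in the genotype difference of Fam107a was not tested, and in bulk cultures fewer cells of a type and less RNA per cell cannot be told apart.

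**Figure D3:**
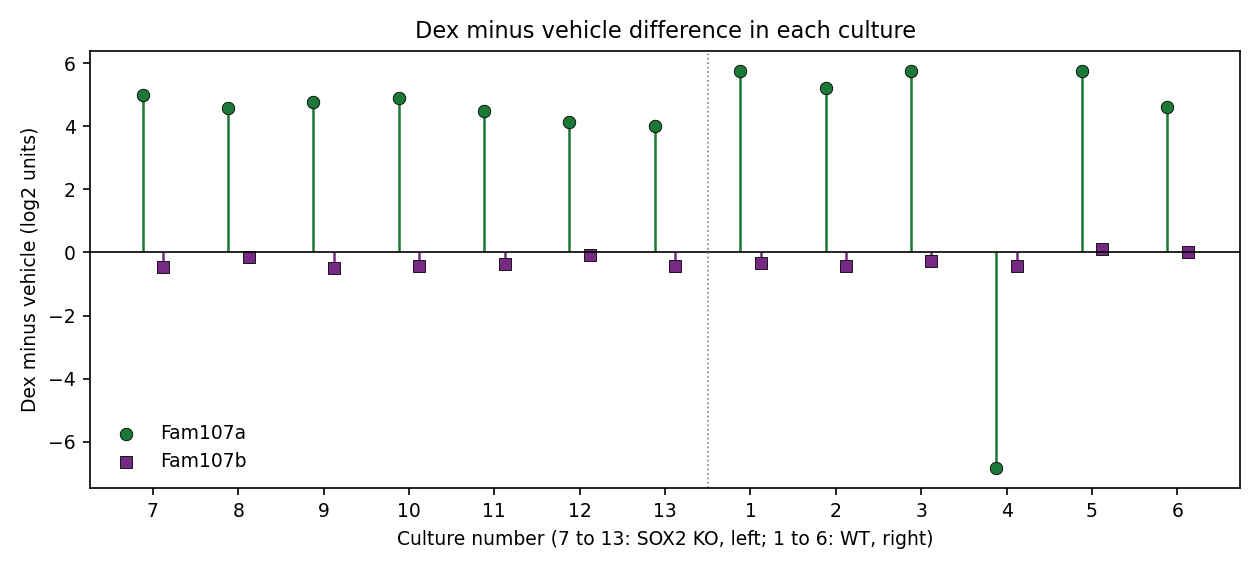
Dex minus vehicle difference (y axis, log2 units) in each culture (x axis) for Fam107a (green circles) and Fam107b (purple squares), with the SOX2 KO cultures on the left and the WT cultures on the right. Fam107a ranged from 3.99 to 5.76 in 12 cultures and was -6.83 in culture 4, and Fam107b ranged from -0.50 to 0.12.

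On its own array Fam107a lay between the 68.9 and 79.5 percentiles of all genes with Dex and between the 17.4 and 36.5 percentiles with vehicle in SOX2 KO. In WT without culture 4 it lay between 74.8 and 82.5 with Dex and between 28.4 and 36.4 with vehicle. These positions also depend on how strongly the probes respond. The files used here hold no detection calls, so it was not tested whether the vehicle values are above background. Where a level is at background, a fold change is a lower estimate.

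Fam107b, the relative, was at a similar level in all 4 groups and slightly lower with Dex in most cultures. In SOX2 KO cultures 7 to 13 its level with Dex was 11.61, 12.14, 10.98, 12.02, 11.31, 12.58 and 10.88. With vehicle it was 12.07, 12.30, 11.48, 12.45, 11.68, 12.66 and 11.32. The groups overlapped widely, and each culture was lower with Dex. The difference ranged from -0.50 in culture 9 to -0.08 in culture 12 with a mean of -0.35 ± 0.16 (SD, n = 7), a level 0.785 times that with vehicle. Of all genes, 1.49% were lower with Dex in 7 of 7 SOX2 KO cultures.

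In WT cultures 1 to 6 Fam107b was at 11.90, 12.08, 13.00, 11.57, 10.78 and 11.44 with Dex. With vehicle it was at 12.25, 12.50, 13.28, 12.01, 10.66 and 11.43. By the labels, cultures 1 to 4 were lower with Dex, by 0.28 to 0.44, and cultures 5 and 6 were not, with differences of 0.12 and 0.01. The mean was -0.23 ± 0.24 (SD, n = 6) with culture 4 and -0.18 ± 0.24 (SD, n = 5) without it. In culture 4 the difference was -0.44 by the labels of its arrays. Whether those labels are right was not tested, so a fall of Fam107b with Dex there cannot be told from a rise. Without culture 4, Fam107b was lower with Dex in 3 of the 5 WT cultures.

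The levels of Fam107b varied more between cultures than with Dex. With vehicle it was at 12.07 to 13.28 in the cluster of cultures 1, 2, 3, 7 and 8, at 12.01 to 12.66 in cultures 4, 10 and 12, and at 10.66 to 11.68 in cultures 5, 6, 9, 11 and 13. The last cluster did not overlap the other 2. With Dex the same clusters had 11.61 to 13.00, 11.57 to 12.58 and 10.78 to 11.44. The clusters were built from all genes on these arrays, both members included, and the part that array scaling plays was not tested. Between genotypes Fam107b differed by -0.15 ± 0.39 (SE) with Dex and by -0.03 ± 0.42 with vehicle (n = 7 and 6), and the second turned to 0.03 after quantile normalization and 0.02 after median centring. Its Dex difference in SOX2 KO minus that in WT was -0.12 ± 0.11 with culture 4 and -0.16 ± 0.12 without it. Within the 3 clusters, in the order above, it was 0.04, 0.18 and -0.50.

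The genes whose response was most like that of Fam107a were found by the cosine between their 13 Dex minus vehicle differences, 1 per culture, where 1 means the same pattern apart from its size. This is a description over cultures that also chose Fam107a. The closest was Per1, a clock gene induced by glucocorticoids, with a cosine of 0.985. It differed by 1.92 ± 0.34 in SOX2 KO (SD, n = 7), by 2.35 ± 0.43 in the 5 other WT cultures (SD, n = 5) and by -2.74 in culture 4. Paqr8, a membrane progestin receptor gene, followed (0.978), and then Sesn1, a stress-response gene of the sestrin family (0.971), Map7d2, a microtubule-associated protein gene (0.967), Fkbp14, a prolyl isomerase gene of the endoplasmic reticulum (0.966), and Smox, the spermine oxidase gene (0.966). Their mean differences ranged from 1.00 to 1.71 in SOX2 KO, all below that of Fam107a, and in culture 4 from -2.10 to -1.25. Without culture 4 these 6 genes ranked between 1 and 7 of 19504. Of the 19504 other genes, 42 had a cosine over 0.9 and 72 (0.369%) had the sign of Fam107a in all 13 cultures. Of the 6 genes, 1 (Map7d2) had a promoter window with the glucocorticoid receptor core, as did 3 of the 26 genes with a window in a list of known glucocorticoid-induced genes (Map3k6, Mt1 and Sgk1) and 0.537% of all genes with a window.

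For Fam107b the likeness was lower throughout, and no gene had a cosine over 0.9. The closest were Sec61a2, a gene of the protein translocation channel (0.842), Lrrtm2, a synaptic adhesion gene (0.836), Gtf2h5, a gene of a transcription and DNA repair factor (0.822), and Ift20, a gene of intraflagellar transport (0.818). Without culture 4 they ranked 12, 8, 18 and 10. Fam107b itself had a cosine of -0.572 with Fam107a over the 13 cultures. That value includes culture 4, where both genes were negative by label (-6.83 for Fam107a and -0.44 for Fam107b), and was not computed without it.

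**Figure D4:**
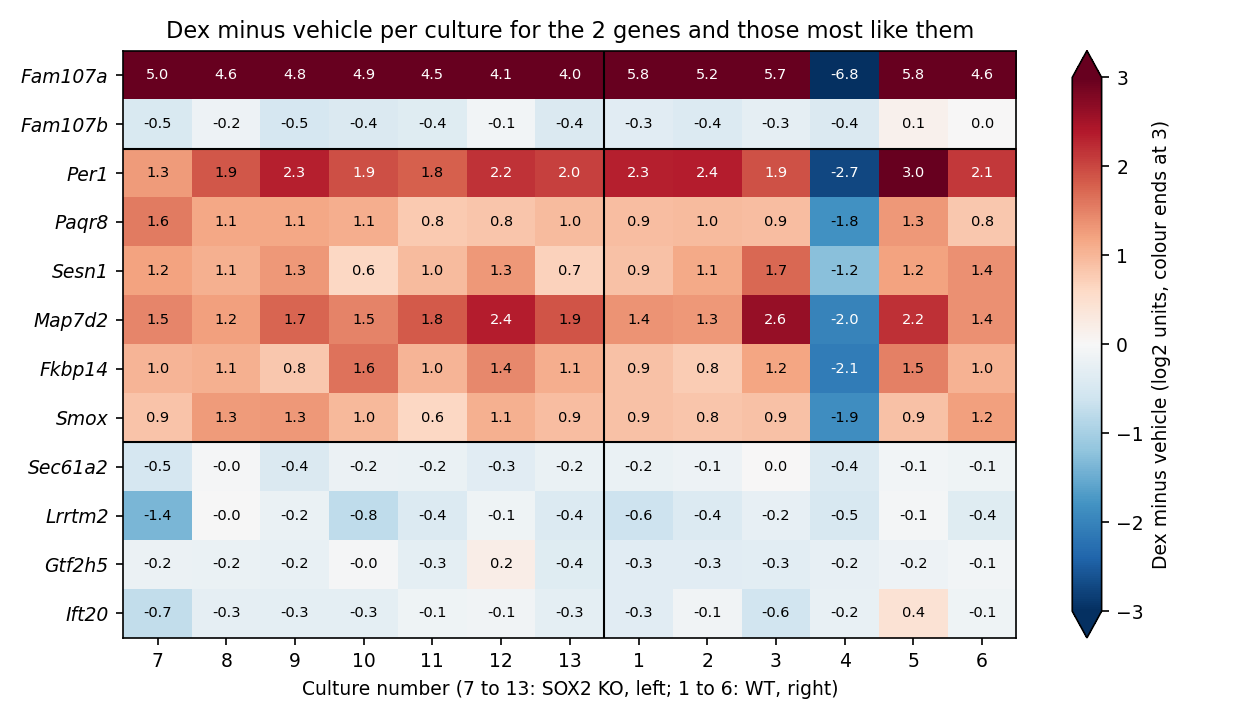
Dex minus vehicle differences in log2 units (colour and printed value) in the 13 cultures (columns, SOX2 KO left and WT right) for Fam107a and Fam107b, the 6 genes most like Fam107a and the 4 most like Fam107b (rows). Per1 to Smox were positive in 12 cultures and negative in culture 4, where Fam107b and the genes most like it were negative as well.

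The genes next to the members on the chromosome were examined by the RefSeq gene order. Beside Fam107a, Acox2, a peroxisomal oxidase gene, differed with Dex by 0.01 ± 0.20 (SE) in SOX2 KO and by 0.31 ± 0.23 in WT, in limma with the culture as a block and without culture 4. Oit1 on the other side differed by 0.37 ± 0.17 in SOX2 KO and -0.18 ± 0.20 in WT. Neither they nor the next genes out, Kctd6 and Cfap20dc, passed an adjusted p of 0.05 in limma in either genotype. Beside Fam107b, Cdnf differed by -0.20 ± 0.27 in SOX2 KO and Frmd4a by -0.47 ± 0.13 (limma adjusted p = 0.253). In WT without culture 4, Cdnf differed by -0.35 on average and Frmd4a by 0.11. Neither they nor Hspa14 and Prpf18 passed in either genotype.

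The wider glucocorticoid response was read from a list of 30 known glucocorticoid-induced genes without Fam107a, of which 27 were measured. In SOX2 KO, 5 rose with Dex, none fell and 22 did not pass in limma, where 0.0513% of all genes were called higher. They were Fkbp5, which encodes a co-chaperone that lowers the receptor's hormone binding (2.20 ± 0.33, SE, adjusted p = 0.00229), Hif3a, of the hypoxia-inducible factors (2.91 ± 0.31, adjusted p = 4.58e-06), Mt2, a metallothionein gene (2.39 ± 0.37), and the transcription factor genes Klf9 (2.24 ± 0.38) and Zbtb16 (2.06 ± 0.38). These SEs come from all 26 arrays with no block, culture 4 included, so they are not of the same kind as those given below for WT. The count of genes that passed was 3 without culture 9 or without culture 13. Over the 27 the median difference was 0.80, against -0.02 over all genes, and 26 were higher with Dex. The exception was Gadd45g. With the culture as a block and without culture 4, 13 of the 27 rose and none fell, with 0.236% of all genes called higher and 0.0154% lower. Fam107a, at 4.54, was above each of these genes.

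In WT none of the 27 passed in limma with culture 4 in the fit, where 0.0% of all genes were called and 9 of the 27 had an unadjusted p under 0.05 (0.964% of all genes). With the culture as a block and without culture 4, 9 of the 27 rose and none fell, with 0.159% of all genes called higher and 0.0103% lower. Per1 rose by 2.35 ± 0.18 (SE, adjusted p = 3.35e-06), Klf9 by 2.05 ± 0.20, Tsc22d3, an anti-inflammatory target, by 1.60 ± 0.19 and Fkbp5 by 1.55 ± 0.16 (adjusted p = 0.000127). The median over the 27 was 0.55, against 0.00 over all genes. Without culture 4 and with no block 4 of the 27 passed. Between genotypes 2 of the 27 were higher in SOX2 KO with Dex, where 0.564% of all genes were called in either direction and 0.185% were called higher. They were Hif3a (1.60 ± 0.32, SE, limma adjusted p = 0.0099) and Bcl6, a transcriptional repressor gene (1.04 ± 0.23, adjusted p = 0.0268). Bcl6 did not pass without culture 4 (adjusted p = 0.0925). With Dex 24 of the 27 were higher in SOX2 KO and 3 lower, with a median of 0.23 (-0.06 over all genes). Without culture 4, 20 were higher and 7 lower, with a median of 0.16 (-0.08 over all genes). In vehicle none of the 27 passed in limma, where 0.559% of all genes were called, or 0.523% without culture 4, and 5 of the 27 had an unadjusted p under 0.05 in each fit (5.17% of all genes, and 6.27% without culture 4). For the difference of the Dex effects none of the 27 and 0.0% of all genes passed in limma, with 3 of the 27 at an unadjusted p under 0.05 (0.718% of all genes), and 6 with the block and without culture 4 (3.30%). This difference was positive in 21 of the 27 and negative in 6, with a median of 0.32 (-0.03 over all genes). With the block and without culture 4 it was positive in 16 and negative in 11, with a median of 0.13 (-0.03 over all genes). Nr3c1 had a level of 6.83 to 8.04 on the Dex arrays and 7.53 to 8.34 on the vehicle arrays of both genotypes and did not pass in either. Within cultures it was lower with Dex in 5 of 7 in SOX2 KO, with a mean of -0.57 ± 0.49 (SD). In WT it was lower in 5 of 6 (-0.32 ± 0.47, SD), or in 4 of 5 without culture 4 (-0.28 ± 0.51, SD).

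**Figure D5:**
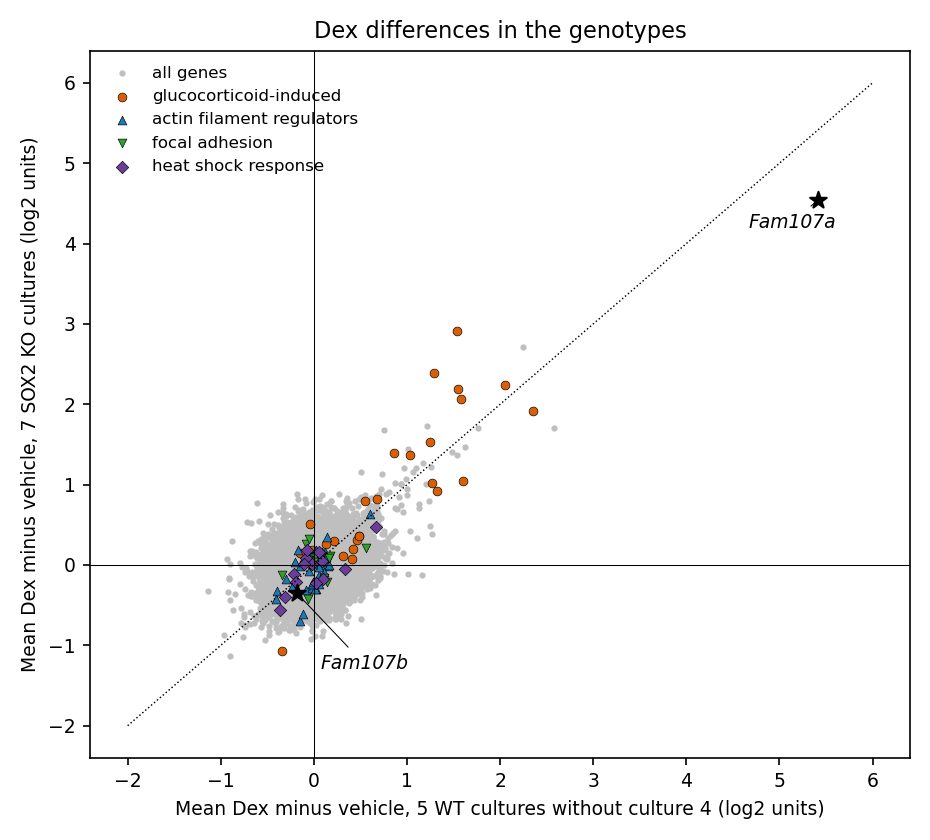
Mean Dex minus vehicle difference in the 7 SOX2 KO cultures (y axis) against that in the 5 WT cultures without culture 4 (x axis), in log2 units, with 1 point per gene and the dotted line at equal values. Fam107a (4.54 and 5.42) stands apart from the other genes, and Fam107b (-0.35 and -0.18) lies within the bulk with the actin, adhesion and heat shock genes.

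Because Fam107a acts on actin, 46 genes of actin filament regulation (43 measured) and 17 focal adhesion genes (16 measured) were examined. None passed with Dex in limma in either genotype, with all cultures or with the block and without culture 4. In the second fit 6 of the 43 actin genes had an unadjusted p under 0.05 in SOX2 KO and 3 in WT, and of the 16 adhesion genes 1 in SOX2 KO and 0 in WT. Of all genes, 9.74% had such a p in SOX2 KO and 4.93% in WT in that fit. The actin gene of smallest p was Ezr, which encodes the membrane linker ezrin (0.63 ± 0.16 in SOX2 KO, SE, limma adjusted p = 0.171, and 0.60 ± 0.19 in WT, adjusted p = 0.665). The median difference of the actin genes was 0.00 in SOX2 KO and 0.01 in WT, where the medians of all genes were -0.02 and 0.00. Among adhesion genes, the laminin receptor gene Itga6 differed by -0.42 ± 0.15 in SOX2 KO and Tns1 by 0.56 ± 0.27 in WT, and neither passed. Between genotypes none of these genes passed in vehicle, where 0.559% of all genes were called, or with Dex, where 0.564% were. Gsn, the actin-severing gene gelsolin, was at -1.55 ± 0.40 with Dex without culture 4 (limma adjusted p = 0.0858). Without culture 4, 32 of the 43 actin genes and 11 of the 16 adhesion genes were lower in SOX2 KO in each treatment. The actin medians were -0.24 in vehicle and -0.22 with Dex, against -0.05 and -0.08 over all genes. In each treatment 6 of the 43 had an unadjusted p under 0.05 (6.27% of all genes in vehicle and 8.38% with Dex). Of the 16 adhesion genes 0 had such a p in vehicle and 1 with Dex, and their medians were -0.12 and -0.11. The share of all genes that were lower in SOX2 KO was not counted.

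Of 18 heat shock genes, the class to which Fam107b is tied, 14 were measured and none passed with Dex in either genotype or between genotypes in limma. Between genotypes 0.559% of all genes were called in vehicle and 0.564% with Dex. There 2 of the 14 had an unadjusted p under 0.05 in each treatment (5.17% of all genes in vehicle and 7.56% with Dex). Without culture 4 these were 3 in vehicle (6.27%) and 2 with Dex (8.38%). For Dex, with the block and without culture 4, 2 of the 14 had such a p in SOX2 KO (9.74% of all genes) and 1 in WT (4.93%). Hspb1, a small heat shock protein gene, differed by 0.47 ± 0.19 in SOX2 KO (SE, adjusted p = 0.442) and 0.66 ± 0.22 in WT (adjusted p = 0.770), and the co-chaperone gene Bag3 by -0.55 ± 0.20 in SOX2 KO and -0.37 ± 0.24 in WT.

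Of 8 other genes described in outer radial glia of human cortex, none passed with Dex in either genotype in limma. With the culture as a block and without culture 4, 2 of the 8 had an unadjusted p under 0.05 in SOX2 KO (9.74% of all genes) and 1 in WT (4.93%). The matrix gene Tnc differed with Dex by -0.63 ± 0.15 in SOX2 KO (SE, limma adjusted p = 0.134) and by -0.61 ± 0.18 in WT (adjusted p = 0.509), and the cytokine receptor gene Lifr by 0.36 ± 0.17 and 0.42 ± 0.20. Hopx differed by 0.27 ± 0.36 in WT. Between genotypes 1 of the 8 was lower in SOX2 KO, the integrin gene Itgb5, at -2.02 ± 0.31 in vehicle (limma adjusted p = 0.000538) and -1.77 ± 0.31 with Dex (adjusted p = 0.00275). Of all genes, 0.369% were called lower in vehicle and 0.379% with Dex. With all cultures and no block, 3 of the 8 had an unadjusted p under 0.05 in vehicle (5.17% of all genes) and 4 with Dex (7.56%). In vehicle 5 were lower and 3 higher, with a median of -0.14 against -0.03 over all genes. With Dex 6 were lower and 2 higher, with a median of -0.22 against -0.06. Without culture 4 the medians were -0.18 against -0.05 and -0.32 against -0.08.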

How the data were processed

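Expression was read from 26 arrays hybridised with biotin-labelled cRNA, per the labels' protocols. The authors deposited 1 value per transcript cluster and array, taken here as log2 expression from its range of 2.22 to 19.81. The base of the logarithm, the normalization and the software are not given in the sources used here. Array medians were 6.44 to 6.84 and upper quartiles 9.38 to 10.43. Of 22206 transcript clusters, 19572 carried 1 gene symbol, none several and 2634 none. The one of highest mean was used per gene (19505 genes). All 19572 matched RefSeq by Entrez identifier.

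For both members, levels, within-culture differences, means and SDs are described with no p-value, and the SE of a genotype difference comes from the SDs of both groups. Other genes were tested with limma 3.58.1 in R 4.3.3: 1 mean for each of the 4 groups over all 26 arrays, moderated by eBayes, with a Benjamini-Hochberg threshold of 0.05 over the 19505 genes and no fold minimum. The number of arrays limits the precision. The vehicle and Dex arrays of a number are the same biological sample by label. With group means removed they correlated at 0.31 to 0.73, and 22 of 26 arrays matched best with their own number. A fit of the Dex effects with the culture as a block and without culture 4 is therefore given as well. The block alone left the calls of the glucocorticoid-induced list at 5 in SOX2 KO and 0 in WT. Array clusters came from average-linkage clustering of the culture profiles. Scripts were tested on simulated data. Motifs were searched with Python 3.11.15.

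Members, gene lists and tests were chosen with earlier results of these data known. Named genes are the members, Sox2, Nr3c1, the 6 genes most like Fam107a and the 4 most like Fam107b by cosine without predicted loci, 2 measured protein-coding neighbours on each side, and up to 4 genes of smallest p per list. Gadd45g, Map3k6, Sgk1 and Olfr961 were named after their values were seen. Alternatives were quantile normalization, median centring, averaging transcript clusters, array cluster as a covariate, the block, leaving out each culture, leaving out the 25% of genes of lowest mean and fitting only the groups compared.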

Additional observations from a re-analysis of the deposited data

Results flagged for a closer look

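Values that stand far from the rest of their group, by the gap to the nearest other value over the group's range, are listed here as a description. They are among the values for which the genes were chosen, and the turned sign of culture 4 was known beforehand, so no chance rate is read from them. Fam107a in culture 4 was at 5.68 in the WT Dex arrays and at 12.51 in the WT vehicle arrays, and their difference, -6.83, stands apart by the same values. In SOX2 KO culture 11 the vehicle level of Fam107a, 4.45, lay below the 5.22 to 5.62 of the other 6. The Dex level of that culture, 8.93, was also the lowest of its group, and its difference of 4.48 was within the range of the other SOX2 KO cultures. No value of Fam107b stood apart in this way.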

How the results depend on the processing

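The Dex difference of Fam107a in SOX2 KO stayed between 4.47 and 4.64 when any culture was left out, was 4.64 after quantile normalization and 4.57 after median centring, and was the same with the replicate block (4.54). In WT it was 2.90 to 5.42 with a culture left out, the highest without culture 4. The genotype difference in the Fam107a response turned to -0.87 without culture 4, with and without the replicate block, within a range of -0.87 to 1.65. With a culture left out, SOX2 KO minus WT for Fam107a ranged from -1.54 to -0.04 in vehicle and from -0.92 to 0.21 with Dex. For Fam107b, with a culture left out, the Dex difference ranged from -0.39 to -0.32 in SOX2 KO and from -0.30 to -0.18 in WT. Its genotype difference in response then ranged from -0.17 to -0.05, and SOX2 KO minus WT from -0.30 to 0.22 in vehicle and from -0.35 to 0.09 with Dex. After quantile normalization the Dex difference of Fam107b was -0.28 in SOX2 KO and -0.22 in WT, and after median centring -0.32 and -0.24.

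Counts of called genes moved more. For Dex in SOX2 KO 10 genes were called, 14 with the replicate block, 49 with the replicate block and without culture 4, 18 after quantile normalization, 25 with array cluster as a covariate and 3 to 16 with a culture left out. For Dex in WT the counts were 0, with the replicate block 0 (755 at an unadjusted p under 0.05), 33 with the block and without culture 4, and 0 to 7. For SOX2 KO minus WT in vehicle they were 109, 169 after quantile normalization, 376 with array cluster and 75 to 143, and with Dex 110, 171, 397 and 69 to 160, or 72 from only those groups' arrays. In vehicle 37 of 109 were higher, after quantile normalization 71 of 169 and after median centring 60 of 140 and with array cluster 188 of 376. With Dex 36 of 110 were higher, against 77 of 171, 67 of 152 and 187 of 397 under the same settings. No gene was called for the difference of the Dex effects in any of these fits (140 at an unadjusted p under 0.05 in limma). Of the 27 glucocorticoid-induced genes, the calls for Dex in SOX2 KO were 5, with the block and without culture 4 13, with array cluster 8 and 3 to 7 with a culture left out, and for Dex in WT 0, with the block and without culture 4 9, and 0 to 4. Between genotypes they were 2 with Dex (1 from only those arrays, 1 to 2 with a culture left out) and 0 in vehicle (1 after quantile normalization, 2 with array cluster, 0 to 1). The block has no value for SOX2 KO against WT, since each culture has 1 genotype. The causes were not tested.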
